A study of Mus musculus with 30 samples.

Results

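Untreated mouse embryonic stem cells of the PDS5AB-NIPBL line were compared with untreated cells of the PDS5AB line, across all expressed genes, by RNA sequencing of polyadenylated transcripts. The 6 libraries compared, 3 per line, were picked by their line and treatment labels from the 30 libraries of the study, and 19868 of the 55421 annotated genes had enough reads to be tested. Both lines descend from E14, a male embryonic stem cell line of 129P2/Ola background, and both carry Tir1, the plant protein that directs tagged proteins to the proteasome once auxin is present. Both also carry auxin-inducible degron (AID) tags on PDS5A and PDS5B. The PDS5AB-NIPBL line has in addition an FKBP degron on NIPBL, which responds to the small molecule dTAG-13, and a HaloTag on RAD21. Neither auxin nor dTAG-13 was given to the 6 libraries, so the comparison asks how the lines differed before any degradation was induced. All lines were kept in serum with leukemia inhibitory factor (LIF), the MEK inhibitor PD0325901 and the GSK3 inhibitor CHIR-99021. Each genotype came from 1 named cell line, so the added tags and the history of that line cannot be told apart. The labels do not say that the 3 libraries of a line came from separate cultures, and the p-values then measure only the spread between these libraries.

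Other untreated lines served as points of reference, with 3 libraries each. The TIR1 line carries Tir1 alone. The WAPL line carries Tir1 with an AID tag on WAPL, and the WAPL-NIPBL line carries those plus the FKBP tag on NIPBL and the HaloTag on RAD21. The treated libraries of the compared lines were also used, namely PDS5AB cells after 24 h in 500 µM auxin and PDS5AB-NIPBL cells after 24 h in 500 µM auxin with 500 nM dTAG-13.

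Cohesin is a ring-shaped complex that holds sister chromatids together and folds interphase chromosomes into loops. NIPBL stimulates its loop extrusion, WAPL releases it from chromatin, and PDS5A and PDS5B bind the ring and take part in its release and in its acetylation and pausing. RAD21 is the subunit that closes the ring. Degron tags can lower the amount or activity of a protein before the drug is added, and each edited line is grown out from selected cells, so untreated lines are the baseline against which degradation is read.

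Total counts of the 6 libraries ranged from 23768343 to 35410075. Replicate libraries correlated at r = 0.989 to 0.992 across genes on the log2 counts-per-million (CPM) scale, and libraries of different lines at 0.971 to 0.979. The first principal component of the 6 libraries, with 60.3% of the variance, ran between the lines. Library numbers in the labels split the study in a way that touches the comparison. Untreated PDS5AB, auxin-treated PDS5AB and untreated TIR1 libraries are numbered 21 or lower, and all other groups, PDS5AB-NIPBL included, are numbered 25 or higher. What the numbers stand for is not given in the sources used here. The processed pseudogene Gm13577 followed this break, with mean levels of 0.764, 0.648 and 0.641 CPM in the 3 groups with low numbers and 5.42 to 6.51 CPM in the other 7 groups. Line and library numbering cannot be told apart in the direct comparison. A referenced difference was therefore computed beside it: the PDS5AB-NIPBL level relative to the mean of the untreated WAPL and WAPL-NIPBL lines, minus the PDS5AB level relative to the untreated TIR1 line, each taken on the log2 scale within 1 range of numbers. It also holds the difference of the WAPL lines from TIR1, and it carries the spread of all 5 untreated lines. A call lost in it is therefore not a test of library numbering alone.

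The transcripts of the tagged genes differed little between the lines. Nipbl was measured at 150 ± 5.85 CPM in PDS5AB cells and at 110, 126 and 127 CPM (121 ± 9.49) in the PDS5AB-NIPBL libraries (SD, n = 3), a log2 difference of -0.31 (SE 0.104, edgeR adjusted p = 0.0217). Here and below, a log2 difference is PDS5AB-NIPBL minus PDS5AB, and a gene is called when its Benjamini-Hochberg adjusted p from edgeR's quasi-likelihood test is under 0.05. Rad21 stood at 361, 378 and 376 CPM against 327 ± 16.2 CPM (SD, n = 3; log2 difference -0.18, SE 0.0589, adjusted p = 0.0180), and the libraries of the lines did not overlap for either gene. Both calls depended on single libraries. Nipbl was not called without PDS5AB replicate 3 (-0.27, adjusted p = 0.0872) or without PDS5AB-NIPBL replicate 1 (-0.24, adjusted p = 0.131). Rad21 was not called without PDS5AB replicate 2 (-0.17), PDS5AB replicate 3 (-0.16) or PDS5AB-NIPBL replicate 1 (-0.13, adjusted p = 0.126). Pds5b was higher, at 109, 112 and 119 CPM against 130, 150 and 139 CPM (log2 difference 0.31, SE 0.0766, adjusted p = 0.00272). Pds5a, at 73.7, 87.2 and 89.0 CPM against 90.4, 111 and 97.1 CPM, was not called (log2 difference 0.25, SE 0.101, adjusted p = 0.0521) but was without PDS5AB replicate 3 (0.31) or PDS5AB-NIPBL replicate 1 (0.33), and in both lines it stood below the 223 ± 14.7 CPM (SD, n = 3) of the TIR1 line. Reads of Pds5a and of 3 genes on its opposite strand cannot be told apart in these counts. None of the 4 was called in the referenced difference, where the values were 0.06 for Nipbl, -0.05 for Rad21, 0.10 for Pds5b and 0.08 for Pds5a. Its reference holds the WAPL-NIPBL line, which carries the same NIPBL and RAD21 tags. Part of any difference shared by both tagged lines is therefore taken away. In the WAPL-NIPBL line, Nipbl was at 70.0 ± 4.67 CPM, against 152 ± 19 CPM in the WAPL line (SD, n = 3). Fkbp1a, the gene for the protein from which the FKBP degron was made, was at 283 ± 32.1 CPM in PDS5AB cells and 308 ± 18.6 CPM in PDS5AB-NIPBL cells (SD, n = 3, log2 difference 0.12, adjusted p = 0.255), and it was called without PDS5AB replicate 1 (0.22, adjusted p = 0.0380).

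Across the transcriptome 6506 of the 19868 genes tested were called (32.7%), 3217 of them higher (16.2%) and 3289 lower (16.6%) in the PDS5AB-NIPBL line. Most differences were small: the median size was 0.28 on the log2 scale over all genes and 0.55 over called genes. Against a minimum change of 2-fold, 393 genes were called (1.98%), 95 higher and 298 lower. Among called genes that differed by at least 1 on the log2 scale, 394 were higher and 1488 lower. The lower ones were often weak transcripts, with a median of 1.01 CPM in PDS5AB cells and 0.310 CPM in PDS5AB-NIPBL cells, and 735 of them (49.4%) were under 1 CPM in PDS5AB cells. The higher ones had a median of 0.637 CPM in PDS5AB cells and 2.00 CPM in PDS5AB-NIPBL cells. For comparison, 26.7% of all genes tested were under 1 CPM in the group where they were higher. The 3 libraries of a line lay wholly above or below those of the other for 8158 genes (41.1%).

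The remaining untreated lines stood nearer to one or the other of the compared lines. For 2846 of the 6506 called genes (43.7%), TIR1, WAPL and WAPL-NIPBL were all nearer to PDS5AB-NIPBL, so that PDS5AB stood apart, against 36.7% of all genes tested. For 810 (12.5%) all of them were nearer to PDS5AB, against 19.8% of all genes. A further 1595 genes (24.5%, against 17.8% of all genes) followed the library numbering, with TIR1 nearer to PDS5AB and both WAPL lines nearer to PDS5AB-NIPBL. Of the 393 genes past the 2-fold minimum, 235 (59.8%) had PDS5AB apart and 35 (8.91%) had PDS5AB-NIPBL apart. Nearness was judged by the log2 of each line's mean CPM plus 0.1 and carries no test.

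The same lines compared after treatment, with no library in common, gave 9436 called genes (47.5%), and 1403 against a 2-fold minimum (7.06%). Of the 6506 genes called before treatment, 4707 (72.3%) were called again, which is 49.9% of the treated calls, and 97.6% of those shared calls had the same direction. Of the 393 genes past the 2-fold minimum, 381 were called in the same direction and 0 in the opposite one. This second comparison crosses the same break in library numbering. The WAPL-NIPBL line against the WAPL line, where the same FKBP and HaloTag edits were added and all libraries are numbered 25 or higher, gave 2119 called genes (10.7%), 992 higher (4.99%) and 1127 lower (5.67%). They included 1188 of the 6506 genes (18.3%, or 56.1% of the calls of the WAPL pair), with 85.4% in the same direction. The step from PDS5AB to PDS5AB-NIPBL and the step from WAPL to WAPL-NIPBL differed for 2475 genes by a direct test of the difference (12.5%). The referenced difference was called for 2133 genes (10.7%). Both of these tests contain the 6 libraries of the direct comparison, so no overlap with it is counted. Against TIR1, PDS5AB differed for 6360 genes (32%) and PDS5AB-NIPBL for 6809 (34.3%), 2 comparisons that share libraries with each other and with the direct one.

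Genes of the 2-cell-like state carried the largest falls. Zscan4 and Usp17l genes, Zfp352, Tcstv3 and Tmem92 are transcribed in the 2-cell embryo and, in embryonic stem cell cultures, in a small and changing fraction of cells. Of 19 such genes listed, 18 were in the table and 16 were tested, and 16 were lower in the PDS5AB-NIPBL line (16.6% of all genes tested were lower). Their summed level was 50.1 to 76.4 CPM in the PDS5AB libraries and 0.435 to 0.949 CPM in the PDS5AB-NIPBL libraries. TIR1 libraries held 4.62 to 6.09 CPM, WAPL libraries 3.70 to 7.10 CPM and WAPL-NIPBL libraries 1.23 to 1.57 CPM, so that PDS5AB cells were above every other untreated line and PDS5AB-NIPBL cells below. All 16 averaged at least 10 counts in PDS5AB and 0 did so in PDS5AB-NIPBL, so they passed the expression filter through the group where they were high, and the count of 16 is a description.

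Zscan4d, a zinc finger gene of the Zscan4 cluster that acts in telomere maintenance, was at 11.2, 8.95 and 8.55 CPM in the PDS5AB libraries and at 0, 0.0435 and 0 CPM in the PDS5AB-NIPBL libraries. That is 913 against 1 count, a ratio of 773 with a 95% counting interval from 138 to 30557, and the adjusted p was 4.38e-15. The gene was at 0.687 ± 0.296 CPM in TIR1, 0.488 ± 0.299 in WAPL and 0.0977 ± 0.0688 in WAPL-NIPBL cells (SD, n = 3). Zscan4c stood at 9.30, 6.67 and 6.92 CPM against 0.108, 0.0435 and 0.0327 CPM (729 against 5 counts, ratio 123, interval 52.6 to 381). Usp17lb, one of a family of deubiquitinase genes, stood at 11.9, 8.85 and 6.98 CPM against 0, 0 and 0.0655 CPM (874 against 2 counts, ratio 370, interval 102 to 3059). For each of these genes the lowest PDS5AB library was far above the highest PDS5AB-NIPBL library. Tmem92 had 150 counts in PDS5AB and 0 in all 3 PDS5AB-NIPBL libraries, which is at least 14.1-fold lower when 3 counts per library are taken as the floor. Zscan4b, Zfp352 and Tcstv3 were likewise at 0 in every PDS5AB-NIPBL library, at least 13.1-fold, 5.70-fold and 4.14-fold lower. The median of the fitted log2 differences was -6.82, or -5.73 with these 4 genes set at their bounds. These intervals and floors cover counting error only.

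Members of the Zscan4 and Usp17l families are near-identical copies, and reads that map to several places were not counted, so the share given to each copy is uncertain. The likeness is shown here for bases upstream of the starts of Zscan4c and Zscan4d, the Zscan4 genes with the most counts in PDS5AB cells, given 5′ to 3′ on the strand of the gene from RefSeq on GRCm38.p6. These bases lie outside the transcripts from those starts, and the likeness of the transcribed sequences was not measured. The pair was chosen after the values were seen. The Zscan4c stretch is chr7:11005506-11005744 on the plus strand and ends at the base before its start, and the Zscan4d stretch is chr7:11166160-11166398 on the minus strand and ends 11 bases farther from its start. Aligned without gaps, 232 of 239 bases are the same (97.1%), and the 7 that differ are in capitals.
Zscan4c: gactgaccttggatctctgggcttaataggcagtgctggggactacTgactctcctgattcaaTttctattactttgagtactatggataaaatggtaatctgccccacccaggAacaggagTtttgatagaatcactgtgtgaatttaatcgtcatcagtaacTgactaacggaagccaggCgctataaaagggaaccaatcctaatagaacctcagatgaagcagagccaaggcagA
Zscan4d: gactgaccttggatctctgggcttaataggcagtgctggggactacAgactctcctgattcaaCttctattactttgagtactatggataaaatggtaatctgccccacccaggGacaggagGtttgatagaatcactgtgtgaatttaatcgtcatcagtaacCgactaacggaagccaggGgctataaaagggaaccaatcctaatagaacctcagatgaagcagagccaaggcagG

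A stricter count gave 20 genes that had at least 50 counts in every PDS5AB library and no more than 3 in every PDS5AB-NIPBL library, and 0 genes did the reverse. The most abundant were Gm8300 (9.61 CPM in PDS5AB, 0.112 in PDS5AB-NIPBL), Zscan4d and Usp17lb, and the rest included Usp17la, Usp17lc, Zscan4a, Zscan4c, Zscan4e, Zscan4f and the pseudogenes Zscan4-ps1, Zscan4-ps2 and Zscan4-ps3. After treatment 16 of the 16 listed genes were again lower in PDS5AB-NIPBL (25.3% of all genes). In the WAPL pair 8 of 16 were lower (5.67% of all genes), and the step in the PDS5AB pair was the larger fall for 12 of 16 by the test of the difference (5.31% of all genes). The referenced difference was lower for 12 of 16 (4.69% of all genes). In bulk RNA, fewer cells in a state and less RNA per cell cannot be told apart. Plac8, which is not on the list, was also high in PDS5AB alone, at 9.33, 10.4 and 7.56 CPM in PDS5AB against 0.287, 0.740 and 0.426 CPM in PDS5AB-NIPBL and 0.404 ± 0.178 CPM in TIR1 (SD, n = 3; log2 difference -4.26, SE 0.327, adjusted p = 2.61e-11).

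**Figure D1:**
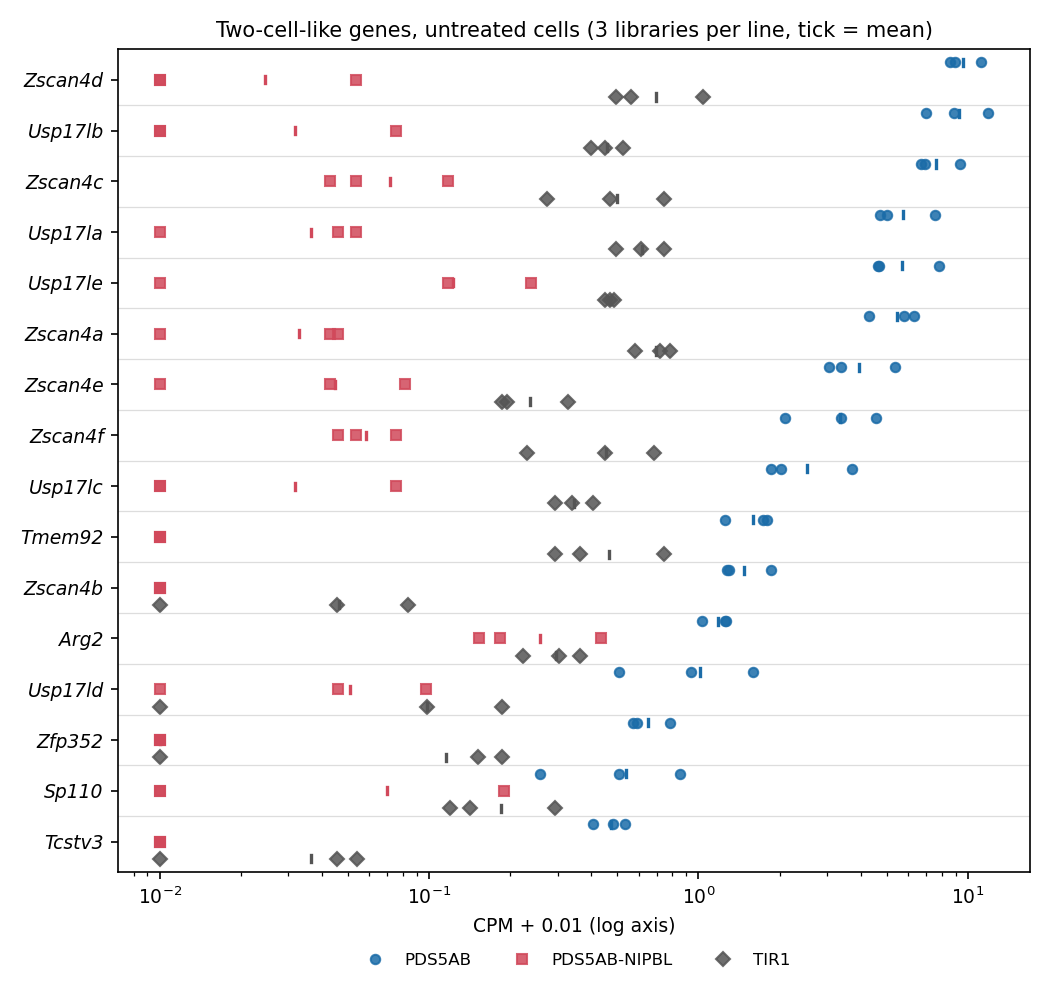
Level of each tested 2-cell-like gene (rows) in every library of the untreated PDS5AB, PDS5AB-NIPBL and TIR1 lines, as CPM + 0.01 on a log axis, with 3 points per line and a tick at the mean. For each of the 16 genes the PDS5AB libraries lie above the PDS5AB-NIPBL libraries, and Zscan4d is at 9.56 CPM on average in PDS5AB, 0.687 CPM in TIR1 and 0.0145 CPM in PDS5AB-NIPBL.

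Meg3, Rian and Mirg, noncoding RNAs of the Dlk1-Dio3 imprinted domain on chromosome 12, were low in the PDS5AB-NIPBL line and in no other untreated line. Imprinted genes are expressed from 1 parental copy, set by DNA methylation inherited from the gametes, and in this domain the maternal copy makes Meg3, Rian and Mirg while the paternal copy makes Dlk1, Rtl1 and Dio3. Meg3 (ENSMUSG00000021268.17, chr12:109541001-109571726, plus strand, GRCm38) was at 167, 176 and 209 CPM in PDS5AB libraries and at 10.2, 13.5 and 16.5 CPM in PDS5AB-NIPBL libraries, a log2 difference of -3.78 (SE 0.188, adjusted p = 1.24e-15). It was at 225 ± 26.6 CPM in TIR1, 214 ± 39.3 in WAPL and 263 ± 31.6 in WAPL-NIPBL cells (SD, n = 3). Rian, a host of small nucleolar RNAs, was at 200, 263 and 282 CPM against 16.6, 21.8 and 23.0 CPM (log2 difference -3.60, SE 0.159), and Mirg, a host of microRNAs, at 18.6, 19.8 and 20.8 CPM against 1.04, 1.57 and 1.44 CPM (-3.87, SE 0.171). The lines did not overlap for any of these transcripts. They fell by nearly the same amount, and a low level was left in every PDS5AB-NIPBL library.

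Rtl1, the retrotransposon-derived gene on the opposite strand, was at 3.54, 3.60 and 4.19 CPM against 0.466, 0.261 and 0.131 CPM (log2 difference -3.72, SE 0.260, adjusted p = 3.46e-12), although the counts cannot separate it from transcripts that run against it. Dlk1, which encodes a Notch-related membrane protein, was at 2.19, 1.39 and 0.993 CPM against 0.143, 0.0435 and 0.327 CPM (-3.02, SE 0.477). Dio3, the gene for a thyroid hormone-inactivating deiodinase at the far end of the domain, was at 27.6, 17.4 and 17 CPM against 1.97, 0.827 and 2.78 CPM (-3.43, SE 0.295). Its lines were ordered in another way, with 6.91 ± 0.779 CPM in TIR1, 4.80 ± 1.55 in WAPL and 0.775 ± 0.234 in WAPL-NIPBL cells (SD, n = 3), so that its low level was shared with WAPL-NIPBL. Begain, before the domain, was at 2.85 CPM against 0.980 CPM on average (-1.50, SE 0.298). Past the domain, Ppp2r5c and Dync1h1 were a little higher (0.38 and 0.48) and Hsp90aa1 was not called (0.02, adjusted p = 0.841), while the weak transcript B930059L03Rik between the first pair was lower, at 1.29 against 0.416 CPM on average (-1.58, adjusted p = 0.000933). Begain, Dio3, Rian, Dlk1 and these neighbours were chosen after their values were seen.

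For Meg3, Rian, Mirg and Rtl1 the step in the PDS5AB pair differed from that in the WAPL pair by -4.07, -4.04, -4.13 and -3.82 on the log2 scale, with adjusted p from edgeR of 4.07e-13, 1.04e-14, 1.30e-14 and 2.27e-09. The referenced differences were -3.85, -3.72, -3.75 and -3.30, all called. Dlk1 differed between the pairs by -2.32 (adjusted p = 0.0214), with a referenced difference of -2.45 (adjusted p = 0.00680). For Dio3 the steps of the pairs were not called different (-0.76, adjusted p = 0.384), and the referenced difference of -1.58 (adjusted p = 0.0101) was smaller than the direct one. After treatment Meg3, Rian, Mirg and Rtl1 differed by -3.94, -3.60, -3.99 and -4.07.

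**Figure D2:**
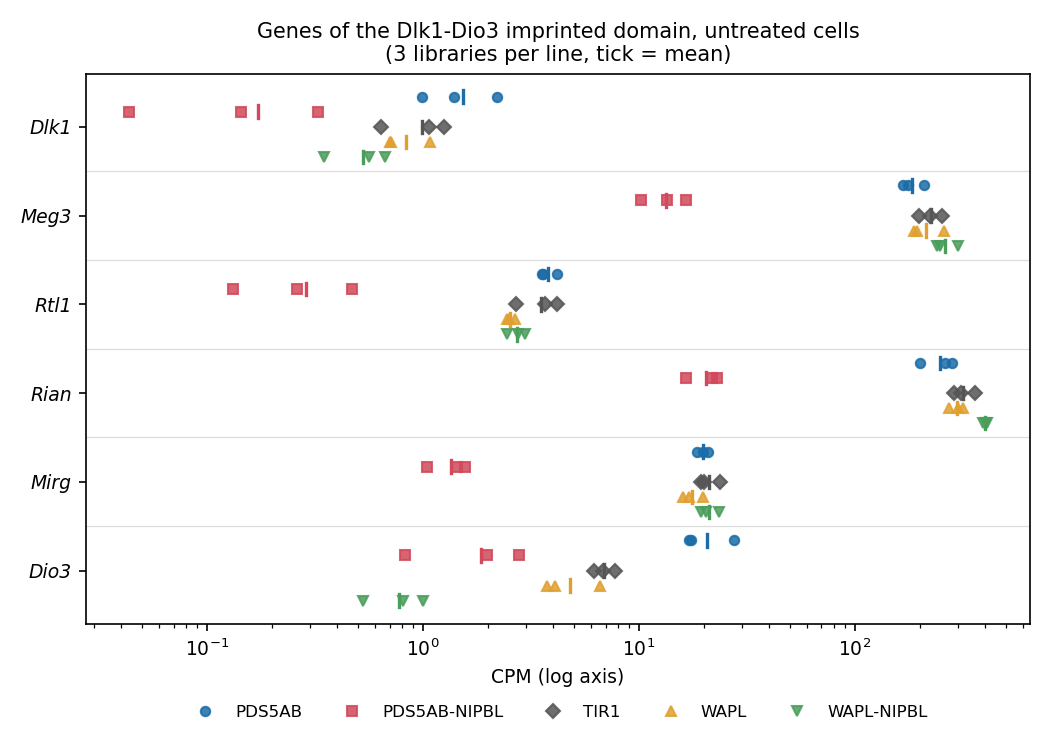
Level of 6 genes of the Dlk1-Dio3 domain (rows, in map order) in every library of the 5 untreated lines, in CPM on a log axis, with a tick at the mean of each line. Meg3, Rtl1, Rian and Mirg are low only in the PDS5AB-NIPBL libraries among these lines (Meg3 13.4 CPM on average, against 184 to 263 CPM), while Dio3 is also low in WAPL-NIPBL (0.775 CPM).

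Imprinted genes elsewhere differed in both directions. Of 41 imprinted genes tested from a list of 43, which holds Meg3, Rian, Mirg, Rtl1 and Dlk1 as well, 17 were lower and 7 higher (16.6% and 16.2% of all genes), with a median log2 difference of -0.20. Of the 41, 39 averaged at least 10 counts in PDS5AB and 35 in PDS5AB-NIPBL. Some thus passed the expression filter through the line where they were high, and the count lower is a description. Grb10, an adaptor that dampens insulin and growth factor signals, was at 229, 241 and 254 CPM in PDS5AB libraries against 68.4, 62.4 and 73.0 CPM (log2 difference -1.83, SE 0.0769, adjusted p = 3.67e-17). Here PDS5AB was the line apart, since TIR1, WAPL and WAPL-NIPBL cells held 47.2 ± 2.41, 39.2 ± 0.664 and 27.3 ± 2.43 CPM (SD, n = 3). Cdkn1c, an inhibitor of cell cycle kinases, showed the same order at 25.5, 21 and 19.5 CPM against 8.42, 5.74 and 6.42 CPM (-1.68, SE 0.146), with 3.16 ± 0.591 CPM in TIR1. The growth factor gene Igf2 was at 3.30, 1.75 and 1.93 CPM against 0.358, 0.305 and 0.196 CPM (-3.01, SE 0.426), with 0.162 ± 0.0864 CPM in TIR1, but its referenced difference was -0.88 (adjusted p = 0.726).

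In the other direction, Plagl1, a zinc finger regulator linked to an imprinted gene network, was at 9.84, 11.9 and 11 CPM in PDS5AB libraries against 40.1, 39.2 and 36.6 CPM (log2 difference 1.82, SE 0.0917, adjusted p = 1.53e-15). TIR1, WAPL and WAPL-NIPBL cells held 92.1, 109 and 349 CPM on average, so both compared lines were below all the rest. Nnat, a gene for a small membrane protein of brain, was at 3.27, 2.21 and 2.54 CPM against 10.1, 9.83 and 15.0 CPM (2.13, SE 0.232). Peg12 was at 7.31 ± 0.910 CPM against 15.2 ± 1.24 CPM (SD, n = 3; 1.06, SE 0.107), and the step in the PDS5AB pair differed from that in the WAPL pair by 1.27 (adjusted p = 4.00e-07). Peg3, a zinc finger gene, was called higher (0.85) but had a referenced difference of -0.00 (adjusted p = 0.995). In the referenced difference 5 of the 41 genes were higher and 13 lower, the same domain genes included (6.05% and 4.69% of all genes). Genes of this paragraph and the last were chosen after their values were seen.

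All genes of the Y chromosome's single-copy group were higher in the PDS5AB-NIPBL line, and the PDS5AB line was the one with low levels. These genes encode housekeeping regulators, such as the RNA helicase DDX3Y and the histone demethylases UTY and KDM5D, and a male line expresses them from 1 Y chromosome. Of 8 genes tested, 8 were higher (16.2% of all genes), and the libraries of the lines did not overlap for 7, against 41.1% of all genes. Only 5 of them averaged at least 10 counts in PDS5AB, against 8 in PDS5AB-NIPBL, so the others passed the expression filter through the line where they were high. Ddx3y (chrY:1260771-1286629, minus strand) was at 12.3, 17.3 and 15.8 CPM in PDS5AB and at 114, 131 and 121 CPM in PDS5AB-NIPBL libraries (log2 difference 3.01, SE 0.105, adjusted p = 2.45e-19). It was at 80.8 ± 6.62 CPM in TIR1, 128 ± 8.05 in WAPL and 139 ± 8.46 in WAPL-NIPBL cells (SD, n = 3). Uty was at 4.52, 6.24 and 6.04 CPM against 32, 41.5 and 34.4 CPM (2.68, SE 0.134), and Zfy1, a zinc finger gene, at 1.82, 2.25 and 2.98 CPM against 16.3, 20.8 and 14.7 CPM (2.86, SE 0.226). Eif2s3y, a translation initiation factor subunit, was at 14.0, 16.6 and 18.1 CPM against 67.0, 83.0 and 63.6 CPM (2.13, SE 0.124). The lowest PDS5AB-NIPBL library exceeded the highest PDS5AB library several times over for each gene in these sentences.

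Summed over the 8 genes, PDS5AB libraries held 44.8 to 55.8 CPM, PDS5AB-NIPBL 267 to 313, TIR1 176 to 212, WAPL 281 to 319 and WAPL-NIPBL 303 to 337 CPM. The PDS5AB line was thus the low one among the 5, and TIR1, which shares its range of library numbers, was also below the other 3. Usp9y overlapped between the lines (0.101, 0.0661 and 0.221 CPM against 0.394, 0.218 and 0.687 CPM). After treatment 6 of 8 were higher in PDS5AB-NIPBL (22.2% of all genes), in the WAPL pair 0 of 8 were called, and the steps differed for 7 of 8 (7.15% of all genes). In the referenced difference 7 of 8 were higher (6.05% of all genes). In these bulk libraries, cells without the Y chromosome and less RNA per Y chromosome cannot be told apart. Other chromosomes showed no such shift. Over 12856 genes averaging 50 counts or more, the median log2 difference ran from -0.02 on chromosome 6 to 0.07 on chromosome 16 among autosomes and was 0.00 on the X chromosome. Of 11850 windows of 50 neighbouring genes, 0 had a median past 0.4 in either direction. The lowest, -0.24, lay at chr2:174284320-180622189 and the highest, 0.23, at chr12:110447120-116391050. On the Y chromosome the median was 1.86 over 8 genes, of which only the pseudogene Mid1-ps1 was lower, and it was at 2.26, 1.09 and 14.7 CPM in PDS5AB against 2.33, 1.04 and 1.47 CPM, so that 1 library made the difference.

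**Figure D3:**
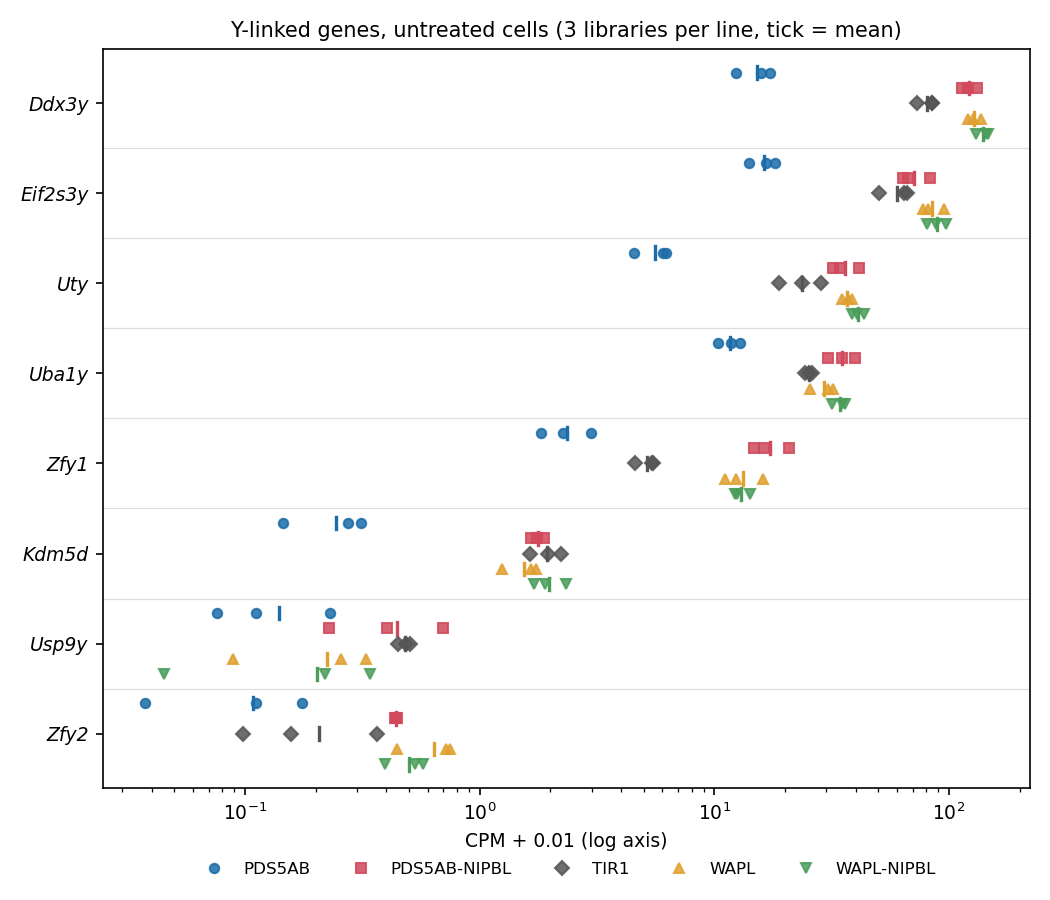
Level of 8 Y-linked genes (rows) in every library of the 5 untreated lines, as CPM + 0.01 on a log axis, with a tick at the mean of each line. The PDS5AB libraries are lowest for each gene from Ddx3y down to Kdm5d, with Ddx3y at 15.2 CPM on average against 80.8 to 139 CPM in the other lines.

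Germline genes whose promoters are silenced by DNA methylation in most somatic cells split between the directions, and one of them, Fkbp6, had the largest rise among the genes named by rule. Of 35 tested from a list of 36, 11 were higher and 13 lower (16.2% and 16.6% of all genes). Fkbp6, a chaperone-like factor of the piRNA pathway and of meiosis, was at 0.741, 0.826 and 0.745 CPM in PDS5AB and at 17.7, 16.6 and 14.2 CPM in PDS5AB-NIPBL libraries, a log2 difference of 4.38 (SE 0.153, adjusted p = 2.45e-19). TIR1, WAPL and WAPL-NIPBL cells held 67.4 ± 3.55, 46.5 ± 3.01 and 52.4 ± 2.37 CPM (SD, n = 3), so PDS5AB-NIPBL was between the PDS5AB line and the rest. Hsf2bp, a meiotic recombination factor, was at 18.3, 19 and 17.2 CPM against 81.3, 76.1 and 69.7 CPM (2.06, SE 0.0676), with 99.6 ± 1.73 CPM in TIR1 (SD, n = 3); 3 genes lie on its opposite strand. Tuba3a, a testis alpha-tubulin, was at 10.8, 11 and 11.4 CPM against 43.4, 37.1 and 30.2 CPM (1.74, SE 0.124), with 196 ± 15.8 CPM in TIR1 (SD, n = 3). For each of these genes the lines did not overlap, and PDS5AB was the lowest of the 5 untreated lines.

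Mael, a piRNA pathway gene, went the other way, from 6.94, 8.06 and 7.28 CPM to 1.83, 2.44 and 2.10 CPM (-1.81, SE 0.162, adjusted p = 6.56e-10), with 3.58 ± 0.104 CPM in TIR1 (SD, n = 3). Others lower were Sycp2 (-1.44), Brdt (-1.39), Tdrd1 (-1.17) and Ddx4 (-0.85), genes of the meiotic chromosome axis, of spermatid chromatin and of the germ granule. Hormad1 (1.35), a meiotic axis protein, and Rpl10l (0.84), a testis ribosomal protein, were higher. The referenced difference was 4.83 for Fkbp6, 2.17 for Hsf2bp, 1.90 for Tuba3a and -1.29 for Mael, all called, and over the list 10 genes were higher and 7 lower (6.05% and 4.69% of all genes).

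The 250 bases upstream of a RefSeq start of Fkbp6, Hsf2bp, Tuba3a and Mael follow, because these are the germline genes with the largest differences and are known for promoter methylation, which acts on CpG dinucleotides. They are written 5′ to 3′ on the strand of the gene from GRCm38.p6, with each CG in capitals. Fkbp6 has chr5:135350045-135350294, Hsf2bp chr17:32034509-32034758, Tuba3a chr6:125286082-125286331 and Mael chr1:166238745-166238994, all on the minus strand. The RefSeq table holds 2 promoters for Fkbp6, of which 1 is shown.
Fkbp6: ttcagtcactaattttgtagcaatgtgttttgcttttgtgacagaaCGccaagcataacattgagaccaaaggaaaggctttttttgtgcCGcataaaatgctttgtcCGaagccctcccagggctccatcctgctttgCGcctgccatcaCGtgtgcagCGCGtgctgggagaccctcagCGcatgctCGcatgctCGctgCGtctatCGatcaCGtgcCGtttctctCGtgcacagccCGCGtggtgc
Hsf2bp: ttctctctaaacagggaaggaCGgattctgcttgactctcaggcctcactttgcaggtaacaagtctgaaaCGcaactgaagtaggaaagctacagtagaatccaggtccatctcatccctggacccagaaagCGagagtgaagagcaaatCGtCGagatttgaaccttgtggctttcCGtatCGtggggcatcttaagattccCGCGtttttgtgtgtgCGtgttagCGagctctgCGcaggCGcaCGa
Tuba3a: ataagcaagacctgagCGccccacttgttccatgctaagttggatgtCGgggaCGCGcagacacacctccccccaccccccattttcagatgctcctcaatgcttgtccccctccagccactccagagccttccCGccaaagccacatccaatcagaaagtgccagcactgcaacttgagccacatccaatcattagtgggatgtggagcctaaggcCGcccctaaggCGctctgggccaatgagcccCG
Mael: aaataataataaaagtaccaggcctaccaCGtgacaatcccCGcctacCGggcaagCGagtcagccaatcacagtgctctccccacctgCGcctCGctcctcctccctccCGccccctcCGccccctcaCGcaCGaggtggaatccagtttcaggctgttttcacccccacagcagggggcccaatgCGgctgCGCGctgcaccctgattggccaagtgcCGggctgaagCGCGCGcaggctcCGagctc

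They hold 17, 14, 8 and 18 CpGs in that order, and the median over 32851 promoter windows of the same length was 6, with 43% of windows at 8 or more. The E-box CACGTG, which reads the same on both strands and is bound by MAX-containing complexes, occurs 2 times for Fkbp6, 1 time for Mael and 0 times for Hsf2bp and Tuba3a, and in 6.02% of all windows. Mael, which fell, has the most CpGs of the 4, and methylation itself was not analysed here.

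Differences called among genes of the DNA methylation machinery were modest in size. Of 20 tested, 8 were higher and 5 lower (16.2% and 16.6% of all genes), and 3 were lower without PDS5AB-NIPBL replicate 1. In the referenced difference 2 were higher and 3 lower (6.05% and 4.69% of all genes). Dnmt3a, a de novo methyltransferase, was at 151, 119 and 122 CPM against 68.9, 66.4 and 71.2 CPM (log2 difference -0.92, SE 0.0892, adjusted p = 3.35e-09), with 82.1 ± 5.60 CPM in TIR1 (SD, n = 3). Its cofactor Dnmt3l was at 359, 288 and 276 CPM against 189, 164 and 200 CPM (-0.74, SE 0.122), and Zfp57, which guards methylation at imprinted regions, at 533, 521 and 592 CPM against 393, 390 and 463 CPM (-0.40, SE 0.0757). The referenced difference kept the call for Dnmt3a (-0.69) but not for Dnmt3l (-0.12, adjusted p = 0.731) or Zfp57 (-0.16, adjusted p = 0.357). The maintenance methyltransferase Dnmt1 was higher by 0.40. Of 29 polycomb subunits, 8 were higher and 3 lower (16.2% and 16.6% of all genes). Under the other settings, leaving aside the 2-fold minimum, the count higher ranged from 5 to 12. In the referenced difference 3 were higher and 3 lower (6.05% and 4.69% of all genes). Those higher included Cbx8 (0.68, and 0.55 without PDS5AB-NIPBL replicate 1, not called) and Pcgf1 (0.55, not called in the referenced difference).

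Hox genes, which pattern the body axis and are held silent by polycomb in embryonic stem cells, differed by cluster. Of the 39 annotated, 30 were tested, and 10 were higher and 6 lower. All 9 genes of the HoxC cluster on chromosome 15 were higher (16.2% of all genes), with a median log2 difference of 1.61. Their summed level was 26.4, 25.3 and 22.2 CPM in PDS5AB and 52.9, 47.1 and 41.8 CPM in PDS5AB-NIPBL libraries. Hoxc10 was at 1.21, 0.793 and 1.63 CPM against 7.46, 4.74 and 5.34 CPM (2.25, SE 0.252, adjusted p = 5.00e-08), with 1.17 ± 0.313 CPM in TIR1, 1.27 ± 0.314 in WAPL and 2.32 ± 0.388 in WAPL-NIPBL cells (SD, n = 3). Hoxc6 (2.29) and Hoxc8 (2.37) were likewise highest in PDS5AB-NIPBL among the untreated lines, while Hoxc13 (0.74) was low in PDS5AB, at 10.7 ± 1.77 CPM against 15.9 ± 2.61 CPM in TIR1 (SD, n = 3). Genes of 1 cluster share their chromosome domain and are not independent observations.

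In the HoxD cluster on chromosome 2 the summed level was lower. Of 6 genes tested 4 were lower and 0 higher (16.6% and 16.2% of all genes), and the summed level was 5.39, 5.42 and 6.51 CPM against 2.69, 2.18 and 2.52 CPM. Of the 30 Hox genes tested, 24 averaged at least 10 counts in PDS5AB and 20 in PDS5AB-NIPBL. Some thus passed the expression filter through the line where they were high, and the count lower is a description. Hoxd13, the most expressed, was at 3.30, 3.11 and 3.47 CPM against 1.43, 1.31 and 1.28 CPM (-1.30, SE 0.177, adjusted p = 1.54e-06), with 0.535 ± 0.0777 CPM in TIR1 (SD, n = 3). Hoxd11 had 19 counts in PDS5AB and 0 in PDS5AB-NIPBL (at least 1.70-fold lower), and Hoxd1 had 35 against 2 counts (ratio 14.8, 95% counting interval 3.81 to 127). In HoxB, Hoxb1 had 29 against 2 counts (ratio 12.3, interval 3.10 to 106) and Hoxb13 was higher (0.68), and 4 of 6 genes were not called. In HoxA, 8 of 9 genes were not called. In the referenced difference 5 Hox genes were higher, all of them HoxC, and 1 lower, Hoxd13 (6.05% and 4.69% of all genes), so that Hoxc8, Hoxd1, Hoxd11 and Hoxb1 were not called.

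**Figure D4:**
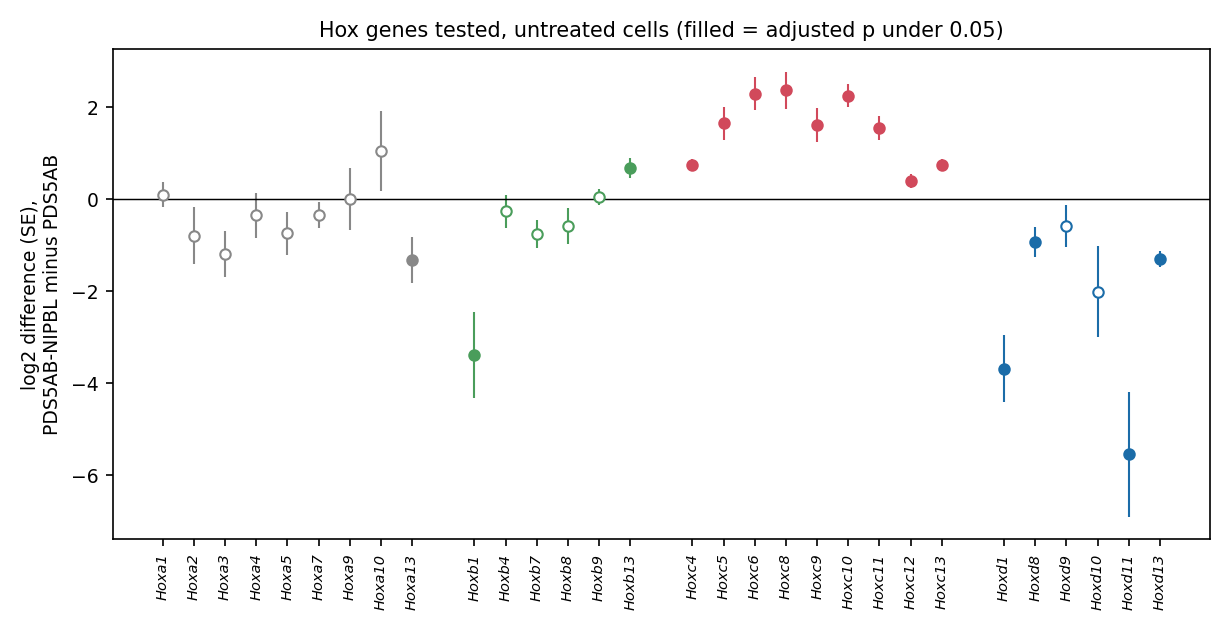
Log2 difference of PDS5AB-NIPBL minus PDS5AB for each of the 30 Hox genes tested, in the order HoxA, HoxB, HoxC, HoxD, with bars of 1 SE and filled points for adjusted p under 0.05. The 9 HoxC genes lie above 0, from 0.40 to 2.37, and the 6 HoxD genes lie below 0; the wide bars belong to genes with few counts such as Hoxd11.

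Pluripotency genes stayed abundant in both lines. Pou5f1, the gene of OCT4, was at 898, 912 and 878 CPM in PDS5AB and at 824, 751 and 816 CPM in PDS5AB-NIPBL libraries (log2 difference -0.17, adjusted p = 0.0827), and Nanog at 1195 ± 133 and 1058 ± 111 CPM (SD, n = 3; -0.18, adjusted p = 0.107). Of 15 naive pluripotency genes 7 were higher and 1 lower (16.2% and 16.6% of all genes), with a median of 0.15, and 4 were higher without PDS5AB replicate 2, PDS5AB-NIPBL replicate 1 or PDS5AB-NIPBL replicate 2, and 2 lower without PDS5AB replicate 1. Klf4, a naive transcription factor and a target of LIF signalling, was at 218, 173 and 200 CPM against 408, 437 and 404 CPM (1.08, SE 0.102, adjusted p = 2.24e-09). TIR1 cells held 279 ± 27.2 CPM, WAPL 352 ± 32 and WAPL-NIPBL 404 ± 65.6 CPM (SD, n = 3). Tfcp2l1 was higher by 0.41 but not called in the referenced difference, where 3 of the 15 were higher (6.05% of all genes), and Dppa3, a maternal-effect gene that protects methylation marks in the zygote, was lower, at 3.27, 4.16 and 3.53 CPM against 1.68, 1.57 and 1.44 CPM (-1.22, SE 0.245). For Dppa3, PDS5AB-NIPBL was the lowest of the untreated lines.

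LIF sustains naive cells through the receptor subunit gp130 and the factor STAT3. Of 14 genes of this pathway and its targets 9 were higher and 0 lower (16.2% and 16.6% of all genes), with a median of 0.36, and 1 was lower without PDS5AB replicate 1 or PDS5AB-NIPBL replicate 3. Il6st, the gene of gp130, was at 87.6 ± 2.69 CPM against 141 ± 9.19 CPM (SD, n = 3; 0.69, SE 0.0648, adjusted p = 1.83e-09), and Stat3 was higher by 0.41. Among targets, Bcl3 was at 35.7, 29.4 and 32.4 CPM against 67.7, 51.7 and 55.7 CPM (0.85, SE 0.104) and the kinase gene Pim1 at 80.5, 67.7 and 66.8 CPM against 121, 132 and 117 CPM (0.78, SE 0.0824). Socs3, the feedback inhibitor of the pathway, was at 202 ± 26.8 and 204 ± 22.7 CPM (SD, n = 3; 0.02, adjusted p = 0.908). In the referenced difference 5 of 14 were higher (6.05% of all genes), including Klf4 (0.64), Bcl3 (0.62), Pim1 (0.54) and Il6st (0.44).

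Of 12 core pluripotency and Dppa genes 1 was higher and 5 lower (16.2% and 16.6% of all genes), and 2 were higher without PDS5AB replicate 1. Dppa2 and Dppa4, chromatin factors that prime developmental genes and act upstream of the 2-cell-like state, were at 69.0 ± 6.37 against 33 ± 4.65 CPM (-1.06, SE 0.123) and at 43.7 ± 1.83 against 30.4 ± 3.67 CPM (SD, n = 3; -0.52, SE 0.0819). Both were lower in PDS5AB-NIPBL than in any other untreated line, and both were called in the referenced difference (-0.67 and -0.48). Utf1 (-0.55, adjusted p = 0.0313) rested on 1 PDS5AB library at 143 CPM, the others being at 76.1 and 81.3 CPM, and lost its call without it (-0.20, adjusted p = 0.444) and without PDS5AB-NIPBL replicate 1 or 2 (-0.46 and -0.43).

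Endoderm genes were more often lower than higher. Of 20 primitive and definitive endoderm genes 11 were lower and 2 higher (16.6% and 16.2% of all genes), with a median of -0.51. Of the 20, 19 averaged at least 10 counts in PDS5AB and 15 in PDS5AB-NIPBL, so some passed the expression filter through the line where they were high, and the count is a description. The endoderm regulators Gata6 and Sox17 were at 2.12, 1.49 and 1.05 CPM against 0.430, 0.131 and 0.262 CPM (-2.44, SE 0.352) and at 1.38, 1.09 and 1.30 CPM against 0.179, 0.392 and 0.360 CPM (-2.01, SE 0.368). Their level in TIR1 cells was 0.542 ± 0.174 and 0.148 ± 0.107 CPM (SD, n = 3), under that of PDS5AB cells. The laminin gene Lama1 was an exception, at 120, 111 and 116 CPM against 241, 270 and 226 CPM (1.08, SE 0.0826). The summed level of the list was also higher, at 1210 to 1430 CPM in PDS5AB and 1523 to 1573 CPM in PDS5AB-NIPBL libraries. Without PDS5AB replicate 1 the count lower was 6, and against a 2-fold minimum 1. In the referenced difference 6 were lower (4.69% of all genes), with Gata6 at -2.66, while Sox17 (-1.87, adjusted p = 0.0609) was not called. Of 12 formative epiblast genes 4 were lower and 0 higher (16.6% and 16.2% of all genes), among them Wnt8a (-1.95), the POU factor Pou3f1 (-1.38) and Sox3 (-1.35), and 1 was higher without PDS5AB replicate 1. Of 11 trophoblast and simple keratin genes 4 were lower and 2 higher, or 1 higher without PDS5AB-NIPBL replicate 2. The largest rise in this list was that of the trophoblast regulator Cdx2 (1.80). Krt18, a simple-epithelium keratin, was at 10.4, 7.27 and 7.50 CPM against 2.19, 1.96 and 2.78 CPM (-1.84, SE 0.192), Krt7 was lower by -1.98 on the log2 scale and Hand1 by -2.65. Wnt8a, Pou3f1, Hand1 and Cdx2 were not called in the referenced difference.

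Other lineage lists were mixed. Of 17 primitive streak and mesoderm genes 4 were higher and 4 lower (16.2% and 16.6% of all genes), and 2 were lower without PDS5AB replicate 1 or PDS5AB-NIPBL replicate 1 or 2. T, the gene of brachyury, was at 1.95, 2.54 and 1.43 CPM against 5.13, 6.96 and 6.74 CPM (1.67, SE 0.196), but its referenced difference was -0.72 (adjusted p = 0.123), with 1.01 ± 0.237 CPM in TIR1 and 9.02 ± 0.717 CPM in WAPL-NIPBL cells (SD, n = 3). Wnt3 (-1.71) was lower, and Lhx1 had 12 against 1 count (ratio 10.2, 95% counting interval 1.50 to 434), and its call was lost without any 1 of 5 of the 6 libraries (adjusted p 0.0633 to 0.135). Of 13 neural progenitor genes 2 were higher (Tubb3 and Ncam1, both 0.64) and 2 lower, including Otx1 (-1.48). Of 10 fibroblast markers, which would report feeder cells, 1 was higher and 2 lower, namely Thy1 (-1.38) and Fbn1 (-0.86), and the list's sum of 1226 to 1455 CPM in PDS5AB and 1814 to 2227 CPM in PDS5AB-NIPBL libraries was mostly fibronectin, Fn1 (1312 and 2010 CPM on average). Of 16 epithelial and mesenchymal genes 4 were higher and 8 lower, with the tight junction gene Ocln (-1.15) and the splicing factor gene Esrp1 (-0.93) lower and Cldn3 (0.89) higher, and 5 were lower without PDS5AB-NIPBL replicate 2. The shares of the streak and neural lists lay near those of all genes. In the referenced difference Lhx1, Ncam1, Thy1, Fbn1 and Fn1 were not called, and 1 of the 16 epithelial and mesenchymal genes was higher and 6 lower (6.05% and 4.69% of all genes).

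Signalling targets differed gene by gene. Of 15 Wnt target genes 6 were higher and 3 lower (16.2% and 16.6% of all genes), and 1 was higher and 3 lower in the referenced difference (6.05% and 4.69% of all genes). Cdx2 was at 2.19, 1.85 and 1.49 CPM against 7.96, 4.74 and 6.42 CPM (1.80, SE 0.221), yet its referenced difference was 0.04 (adjusted p = 0.962). Sp8 was at 1.99, 1.29 and 1.32 CPM against 0.287, 0.131 and 0.295 CPM (-2.62, SE 0.368), with a referenced difference of -4.35 (adjusted p = 4.82e-07), and Lgr5 was lower as well (-2.72) but not called in the referenced difference (adjusted p = 0.940). Of 17 Nodal and activin genes 4 were higher and 4 lower, with Inhbb (-0.93) and Fst (-0.63) among those lower, though Inhbb was not called without PDS5AB-NIPBL replicate 1 (-0.70) or 2 (-0.74) and had a referenced difference of 0.55 (adjusted p = 0.388). In the referenced difference 0 of these 17 genes were higher and 3 lower (6.05% and 4.69% of all genes). Of 13 BMP genes 3 were higher and 4 lower, including Id4 (0.87), Nog (-1.05) and Bambi (-0.78), and 2 were lower without PDS5AB replicate 3. Of 17 ERK feedback genes 2 were higher, with Fos at 0.74 (referenced -0.56, adjusted p = 0.141), and 2 lower, Fosl1 (-1.91) and Dusp5 (-0.52). Neither was called without PDS5AB replicate 1 (-1.38 and -0.45), PDS5AB replicate 2 (-1.96 and -0.52), PDS5AB-NIPBL replicate 1 (-1.89 and -0.39) or PDS5AB-NIPBL replicate 2 (-1.43 and -0.53), and 5 genes of the list were higher without PDS5AB replicate 1. Of 24 p53 targets 2 were higher and 4 lower, led by Pmaip1 (-1.15), Fas (-1.14, and -0.83 without PDS5AB replicate 1, not called) and Perp (-0.74); the share lower was close to the 16.6% of all genes and the share higher was under the 16.2% of all genes, with 1 higher without PDS5AB-NIPBL replicate 2. Among 6 AHR targets Ahr (0.48) and Nqo1 (0.45, not called without PDS5AB-NIPBL replicate 3) were higher, and 1 was lower without PDS5AB-NIPBL replicate 2. Id4, Nog, Fosl1, Dusp5, Fas and Perp were not called in the referenced difference.

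Of 22 genes of amino acid synthesis and the ATF4 stress response 10 were lower and 2 higher (16.6% and 16.2% of all genes), led by Nupr1 (-1.42), Atf3 (-1.33) and Cth (-0.67). The count higher was 1 without PDS5AB replicate 2 or 3 or PDS5AB-NIPBL replicate 1. The count of lower genes was 5 without PDS5AB replicate 2 or 3 and 2 in the referenced difference (4.69% of all genes), where Nupr1 and Cth were not called. Of 22 glycolysis genes 5 were higher and 1 lower, with 3 lower without PDS5AB replicate 1 and 2 without PDS5AB-NIPBL replicate 1, and 1 was higher in the referenced difference (6.05% of all genes). Ldhb, a lactate dehydrogenase subunit, was at 257, 345 and 345 CPM against 664, 606 and 557 CPM (0.95, SE 0.0956) and followed the library numbering, with 375 ± 33 CPM in TIR1 and 555 ± 17.3 CPM in WAPL cells (SD, n = 3). Slc2a1, the glucose transporter gene, did too (0.79, referenced -0.01). Mitochondrial mRNAs, used as a check of RNA quality, were called for 1 of 13, mt-Co3 (-0.93), which lost its call without PDS5AB replicate 1 or 2 or PDS5AB-NIPBL replicate 1 or 3 (-0.78 to -0.87), and their sum was 29621 to 32027 CPM in PDS5AB and 28191 to 30903 CPM in PDS5AB-NIPBL libraries. Under the other settings, leaving aside the 2-fold minimum, the count of these mRNAs called lower ranged from 0 to 4 of 13.

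Among the 18 untagged cohesin genes tested 7 were higher and 1 lower (16.2% and 16.6% of all genes), and 4 were higher without PDS5AB replicate 1 or PDS5AB-NIPBL replicate 2. Stag1, one of the alternative subunits next to the ring, was at 109, 125 and 128 CPM against 174, 205 and 197 CPM (0.67, SE 0.0827, adjusted p = 3.15e-07), with 127 ± 14.1 CPM in TIR1, 131 ± 9.18 CPM in WAPL and 168 ± 3.38 CPM in WAPL-NIPBL cells (SD, n = 3), and its referenced difference was 0.45 (adjusted p = 0.00570). The meiotic subunit gene Stag3 was higher by 0.52, with a referenced difference of -0.0026 (adjusted p = 0.999), and 2 of the 18 genes were higher in the referenced difference (6.05% of all genes). Pttg1, the securin that restrains separase, was at 14.4 ± 1.12 CPM against 8.40 ± 1.46 CPM (SD, n = 3; -0.78, SE 0.132). In the WAPL pair Pttg1 differed the other way (0.65), and the steps differed by -1.43 (adjusted p = 8.05e-07). Clustered protocadherins, neuronal adhesion genes whose promoter choice depends on cohesin, were weakly expressed. In the alpha cluster, where 3 of 6 tested averaged at least 10 counts in PDS5AB and 0 did in PDS5AB-NIPBL, 2 of 6 were lower, a count that is a description only, with Pcdha3 at 0.674, 0.396 and 0.386 CPM against 0.0358, 0 and 0.0982 CPM, in the beta cluster 1 of 5 (Pcdhb14, -1.26), with 4 and 2 members at that level in the respective lines, and in the gamma cluster 3 of 21 were higher and 1 lower, among them Pcdhga12 (0.69). The gamma count higher was 5 without PDS5AB replicate 1 and 1 without PDS5AB-NIPBL replicate 1, and the count lower was 0 without PDS5AB replicate 3 or PDS5AB-NIPBL replicate 2. The alpha count lower was 1 without PDS5AB replicate 1 or 3 or PDS5AB-NIPBL replicate 1 or 3, and the beta count 2 without PDS5AB-NIPBL replicate 3. When referenced, 8 of the 21 gamma genes were higher (6.05% of all genes). Pcdha3 and Pcdhb14 were not called in the referenced difference. The isoforms of the alpha cluster, and those of the gamma cluster, share their last exons, so their counts are not separate.

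**Figure D5:**
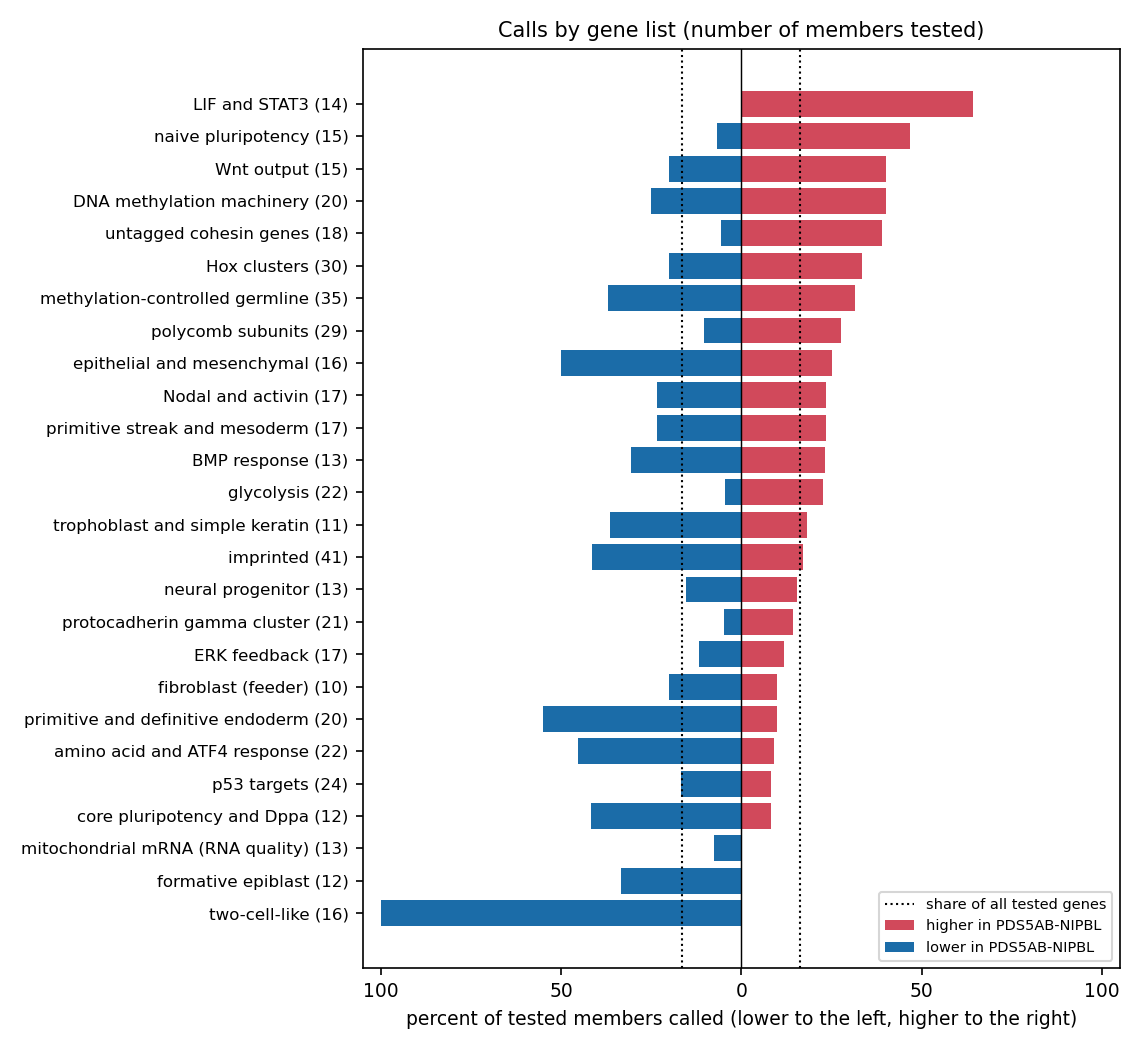
Percent of the tested members of each gene list called higher (right) or lower (left) in the PDS5AB-NIPBL line, for lists with at least 10 tested members, with dotted lines at the shares over all genes tested (16.2% higher, 16.6% lower). Of the LIF and STAT3 genes 9 of 14 were higher. The bars of the 2-cell-like genes (16 of 16 lower) and the endoderm genes (11 of 20 lower) are a description, since members that averaged at least 10 counts numbered 16 and 19 in PDS5AB against 0 and 15 in PDS5AB-NIPBL. The same holds for the lower bars of the imprinted genes (39 against 35) and the Hox genes (24 against 20).

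Outside the lists, the largest rises after Fkbp6 were in genes of varied function. Ushbp1 was at 0.674, 1.29 and 1.08 CPM in PDS5AB against 16.3, 10.3 and 13 CPM (log2 difference 3.70, SE 0.191), and Igsf23, of the immunoglobulin superfamily, at 1.85, 2.44 and 2.12 CPM against 22.8, 19.8 and 17.7 CPM (3.23, SE 0.144). Nefm, a neurofilament subunit, was at 6.17, 2.71 and 2.48 CPM against 27.7, 28.2 and 37.8 CPM (3.07, SE 0.233), and Msc, a bHLH repressor, at 0.371, 0.529 and 0.827 CPM against 5.34, 4.18 and 5.20 CPM (3.06, SE 0.239). For all 4 genes TIR1, WAPL and WAPL-NIPBL were nearer to PDS5AB-NIPBL, so PDS5AB was the line apart. The pseudogene Zfp264 (2.62) and the peptide transporter gene Slc15a2 (2.53) likewise had PDS5AB apart.

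Klhl13, an X-linked adaptor of a ubiquitin ligase, was different: PDS5AB-NIPBL was above and PDS5AB below each of the other untreated lines. It was at 50.6, 60.0 and 48.0 CPM in PDS5AB and at 660, 533 and 418 CPM in PDS5AB-NIPBL libraries (3.35, SE 0.195, adjusted p = 5.53e-14). TIR1, WAPL and WAPL-NIPBL cells held 165 ± 7.30, 233 ± 53.7 and 232 ± 51.7 CPM (SD, n = 3), and the referenced difference was 2.85 (adjusted p = 3.75e-10). Slc44a5, a choline transporter-like gene, was at 0.876, 0.694 and 0.965 CPM against 5.09, 5.57 and 4.29 CPM (2.54, SE 0.198), but it followed the library numbering and its referenced difference of 0.81 was not called (adjusted p = 0.0612). The WAPL pair had its own largest changes, Gphn at 10.6 ± 1.07 against 46.4 ± 1.95 CPM (SD, n = 3; log2 difference 2.13) and Scn3a (-2.97), where the PDS5AB pair differed by 0.11 (adjusted p = 0.367) and -1.15.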

How the data were processed

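Polyadenylated RNA of 30 mouse embryonic stem cell libraries in 10 groups of 3 was sequenced with a stranded kit. The authors deposited raw read counts per gene, made with featureCounts 2.0.1 on paired reads over the GENCODE annotation of GRCm38, per the file headers, which record no strand option; reads with several mapping positions were not counted. STAR 2.7.7a, cutadapt and deepTools are named in the submitters' processing notes. Counts on opposite strands therefore cannot be separated. Symbols were matched for 55240 of 55421 gene identifiers (99.7%). No pair of libraries held identical counts. The 30 libraries totalled 19632704 to 45539021 counts.

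Genes were filtered with filterByExpr (minimum count 10) and fitted with edgeR 4.0.16 (R 4.3.3): TMM scaling, quasi-likelihood tests, 1 mean per group over all 30 libraries, 20 residual degrees of freedom, and Benjamini-Hochberg adjustment over 19868 genes. The common biological coefficient of variation was 9.15%. CPM are TMM-scaled. The fit was first tested on simulated data. Tables and figures were made with Python 3.11.15, pandas 2.3.3, numpy 2.4.6 and matplotlib 3.10.9. Each result was recomputed with DESeq2 1.42.0, with RLE scaling, without the filter, from only the groups in question, against a minimum of 2-fold, with a replicate block, without each library in turn, and referenced within library numbering; list counts under them were added after seeing the data.

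The rule for named genes took the 12 largest differences in each direction among called genes averaging 50 counts or more whose lines did not overlap, leaving out predicted genes; the tagged genes and Fkbp1a; the 3 largest called members of each list; the 3 largest on or off genes per direction; and the largest genes of the WAPL pair and of the difference. Other genes were chosen after their values were seen. The members and the 31 lists were chosen with earlier results of these data known.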

Additional observations from a re-analysis of the deposited data

Results flagged for a closer look

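For 25 of the named genes the step from PDS5AB to PDS5AB-NIPBL differed from the step from WAPL to WAPL-NIPBL, tested against a minimum difference of 2-fold with edgeR. In each case the value below is the log2 difference of the PDS5AB pair minus that of the WAPL pair, and the PDS5AB pair crosses the break in library numbering while the WAPL pair does not.

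Steps more positive in the PDS5AB pair were found for the Y-linked genes Ddx3y (2.88), Zfy1 (2.89), Uty (2.52) and Kdm5d (2.51), and for the germline genes Fkbp6 (4.21) and Hsf2bp (1.80). The same was found for Nefm (3.54), Ushbp1 (3.50), Klhl13 (3.36), Igsf23 (3.0), Slc44a5 (2.21) and Zfp264 (2.10).

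Steps more negative in the PDS5AB pair were found for the 2-cell-like genes Tmem92 (-7.28), Zscan4d (-6.91), Zscan4a (-6.41), Usp17la (-6.18), Usp17lb (-5.61), Zscan4e (-5.49) and Zscan4c (-4.36), whose sizes depend on counts near 0. The transcripts of the Dlk1-Dio3 domain followed, with Mirg at -4.13, Meg3 at -4.07 and Rtl1 at -3.82.

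In the WAPL pair, 8 of the 25 genes were called: Esrp1, Krt18, Gphn, Hsf2bp, Zfp264, Usp17lb, Zscan4c and Zscan4d. The steps were called in opposite directions for 2 of them. Krt18 was lower in PDS5AB-NIPBL (-1.84) and higher in WAPL-NIPBL (1.14), a difference of -2.98. Esrp1 fell in the PDS5AB pair (-0.93) and rose in the WAPL pair (1.29), a difference of -2.22. Gphn, which encodes the scaffold protein gephyrin, rose in the WAPL pair (2.13) and was not called in the PDS5AB pair (0.11), a difference of -2.02.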

How the results depend on the processing

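Against a 2-fold minimum the untreated comparison had 393 calls (95 higher, 298 lower), the treated one 1403 (221 and 1182), the WAPL pair 75 (16 and 59), the difference between the pairs 124 (71 and 53) and the referenced difference 201 (100 and 101), and PDS5AB stood apart for 235 genes. The share of calls that were higher went from 49.4% to 24.2% in the untreated comparison, from 46.7% to 15.8% in the treated one and from 46.8% to 21.3% in the WAPL pair. The referenced difference had 2133 calls in place of 6506. The other settings left the untreated count within 1.5 times of 6506: 6468 with DESeq2, 6110 without the filter, 4852 with the compared groups alone, and 5101 to 6126 without 1 library. Calls higher in the WAPL pair fell to 650 without WAPL replicate 1 and ranged up to 788 without the others. The median of chromosome 16 ranged from 0.04 to 0.09 and that of the Y chromosome from 1.81 to 2.23 without 1 library; with no minimum count, chromosome 6 was at -0.09 and chromosome 16 at 0.01.

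Of 108 named genes, RLE scaling changed the call of 0, DESeq2 of 4, no filter of 6 and the 2-fold minimum of 64. Referencing within library numbering ended 37 calls with the sign kept and 7 more with the sign changed, none of these called: T (-0.72), Fos (-0.56), Inhbb (0.55), Scn3a (0.66) and, at values near 0, Nipbl (0.06), Slc2a1 (-0.01) and Stag3 (-0.0026); the cause was not tested. The labels number the replicates 1 to 3, but same-numbered libraries did not deviate together (r = 0.0153, 0.0444 and -0.07), and 1 of 3 PDS5AB libraries correlated best with its own number. A replicate block gave 7429 calls in place of 6506. Genes with a few counts in 1 line, such as Hoxd11, have differences that depth limits.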
